A study of Mus musculus with 6 samples.

Results

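G protein-coupled receptors are described here in mouse inner ear organoids grown with or without a blocker of the ERK pathway. Of the 4994 genes in the deposited expression table, 38 had a symbol that matched a fixed pattern of receptor gene names, such as Adgr, Gpr, Ptger, Lpar, S1pr, F2r or Ednr. Of these, 35 encode G protein-coupled receptors. The other 3 share the naming but not the class: Gpr137 and Gpr137b encode membrane proteins outside the classical receptor families, and Htr3b encodes a subunit of an ion channel opened by serotonin.

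The PD organoids (n = 3) were wild-type cultures given PD0325901, which blocks MEK1 and MEK2, the kinases that switch on ERK, at 1 µM for 10 days. The DMSO organoids (n = 3) were wild-type cultures given an equal volume of the solvent over the same 10 days. Both groups shared a medium with CHIR99021 (3 µM), a GSK3 inhibitor, and the growth factors IGF (50 ng/mL), EGF (20 ng/mL) and bFGF (10 ng/mL), and both are labelled as epithelial cells. Whether the samples of a group were grown as separate cultures is not said in the labels, and p-values here reflect sample-to-sample spread alone, part or all of which may be technical.

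G protein-coupled receptors cross the membrane in a bundle of helices and pass an outside signal to G proteins inside the cell. Receptors coupled to Gs raise cyclic AMP, those coupled to Gi/o lower it, those coupled to Gq/11 release calcium through phospholipase C, and those coupled to G12/13 act on the cytoskeleton. Adhesion receptors, a family with long outer domains, bind matrix proteins and proteins of neighbouring cells. In the inner ear such receptors take part in fluid balance, blood flow and the shaping of the semicircular canals.

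The table holds a normalized value per gene and sample, whose scale is not stated, so values are compared between samples and are not read as a ranking of genes. Sums over marker genes are likewise set only between samples, and each is weighted to the genes with the highest values. Every listed gene differed at least 1.5-fold either way, with no adjusted p above 0.0499 in the authors' deposited table. The counts below are thus counts among genes the authors chose on these same samples. The test used below and its adjustment also ran only over these chosen genes. Its adjusted p-values therefore do not bound the share of false calls. Summed values ran from 290560 to 296997 in PD organoids and from 289255 to 293278 in DMSO organoids, and no sequencing depth can be read from such sums. Of 8 epithelial marker genes 6 are listed, and their summed values were 936 to 948 in PD organoids and 1838 to 1954 in DMSO organoids, with Cdh1 and Grhl2 higher and Epcam, Krt8, Krt18 and Cldn6 lower in PD. Fibroblast and mesenchyme markers (8 of 9 listed, 6 higher, 0 lower, 2 not called) summed to 3954 to 4475 in PD organoids and 1733 to 1903 in DMSO organoids. Smooth muscle and pericyte markers (5 of 8 listed, 3 higher, 2 lower) summed to 267 to 275 in PD organoids and 44.9 to 47.6 in DMSO organoids. Of 7 hair cell markers 4 are listed, with Pou4f3, Otof and Ptprq higher and Espn lower, and their sum, most of which in DMSO organoids was Espn, was 8.39 to 10.4 in PD organoids and 27.7 to 36.9 in DMSO organoids. In bulk samples, fewer cells of a type and less RNA per cell cannot be told apart.

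In PD organoids 17 of the 38 genes rose, 16 fell and 5 did not pass the test, which was limma on log2(value + 1) over all 4994 genes at an adjusted p under 0.05. That is 86.8% of these genes, where 95.5% of all listed genes passed in either direction, 44.5% as higher and 51.1% as lower. PD and DMSO values lay apart, with no overlap, in 33 of the 38 genes, beside 95.2% of all listed genes. The median log2 difference was 0.20 over the 38 genes and -0.42 over all listed genes, and the median size of the difference without its sign was 0.84 and 0.85. The 5 genes that did not pass were Ednrb, Gpr19, Adgrb2, Gpr137 and Htr3b.

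By coupling, the 35 receptors moved both ways in every class with more than 2 listed members. Of 7 receptors coupled mainly to Gi/o, 5 rose and 2 fell, and their median log2 difference was 0.35. Of 7 coupled mainly to Gq/11, 3 rose, 3 fell and 1 was not called, with a median of -0.35. Both listed Gs receptors, Vipr1 and Calcrl, fell (median -0.69). Of 3 receptors that use several G proteins, 1 rose and 2 fell (median -0.83). The 6 adhesion receptors gave 3 higher, 2 lower and 1 not called (median 0.42). The 10 receptors whose coupling is not settled gave 5 higher, 4 lower and 1 not called (median -0.20). Medians over so few genes describe these members and were not tested against other genes.

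**Figure D1:**
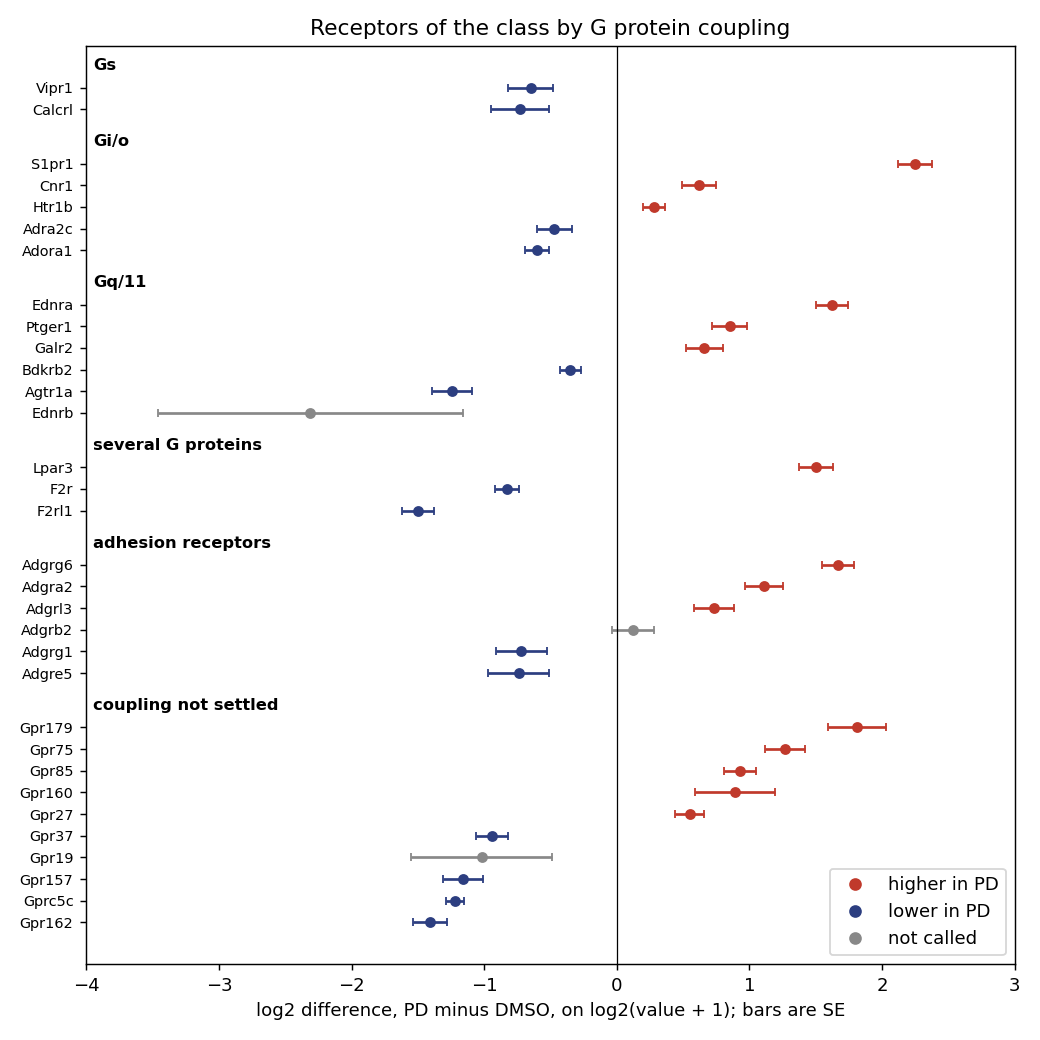
Of the 35 receptors, 32 are shown, grouped by the G protein they mainly use, and each point is the log2 difference, PD minus DMSO, on log2(value + 1), with its SE as the bar. Both Gs receptors lie left of 0, the Gi/o receptors shown give 3 points right of 0 and 2 left of it, and the widest bar is that of Ednrb, at -2.31 ± 1.15.

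Receptors for lipids were the only ligand type with more than 2 listed members in which every member rose. These were S1pr1, Lpar3, Ptger1 and Cnr1, with a median log2 difference of 1.17, where 44.5% of all listed genes rose. So few genes describe themselves alone, and they were not tested against other genes. S1pr1 (chromosome 3, 115710433 to 115715072 on mm10), the Gi-coupled receptor for sphingosine 1-phosphate known from lymphocyte exit and blood vessel maturation, had values of 6.97, 5.91 and 6.73 in PD organoids and of 0.65, 0.69 and 0.41 in DMSO organoids. The lowest PD library stood above the highest DMSO library, and the PD mean was 11.2 times the DMSO mean. The log2 difference was 2.25 ± 0.13 (SE, limma adjusted p = 4.57e-06), the largest rise among the 38 genes by this measure. Endothelial markers, a cell type where S1pr1 is well known, moved both ways: of 7 markers 4 are listed, Cdh5, Kdr and Emcn rose and Tek fell, and their sum was 35.7 to 42.2 in PD organoids and 45.8 to 49.4 in DMSO organoids. Cdh5 was at 0.663 ± 0.170 in PD organoids and 0.0167 ± 0.0289 in DMSO organoids (SD, n = 3), Pecam1, Tie1 and Cldn5 are not listed, and the part of such cells in the S1pr1 result was not tested.

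Lpar3 encodes a receptor for lysophosphatidic acid known in the mouse from embryo implantation. It had values of 11.05, 10.62 and 10.97 in PD organoids and of 2.70, 3.32 and 3.67 in DMSO organoids, so the groups lay apart, with a PD mean 3.37 times the DMSO mean. Its log2 difference was 1.5 ± 0.13 (SE, limma adjusted p = 2.42e-05). Ptger1, the Gq-coupled EP1 receptor for prostaglandin E2, averaged 3.31 ± 0.131 in PD organoids and 1.40 ± 0.278 in DMSO organoids (SD, n = 3). That value is uncertain, because 71.0% of the annotated exon bases of Ptger1 also lie in annotated exons on the opposite strand and no source used here says how strand was set in counting. Cnr1, the Gi-coupled cannabinoid receptor best known from the brain, averaged 3.12 ± 0.571 in PD organoids and 1.66 ± 0.0404 in DMSO organoids (SD, n = 3).

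The enzymes that make and remove these lipids moved in both directions. Of 42 genes in a list of prostaglandin, lysophospholipid and endocannabinoid enzymes 17 are listed, of which 9 rose and 8 fell. Mgll, which breaks down the cannabinoid 2-arachidonoylglycerol, rose to 113 ± 4.27 in PD organoids, against 20.8 ± 2.63 in DMSO organoids. Plpp3, a surface phosphatase that inactivates lysophosphatidic acid and sphingosine 1-phosphate, fell to 15.8 ± 0.911 in PD organoids, against 55.9 ± 1.09 in DMSO organoids (SD, n = 3). Its relative Plpp1 rose, at 6.25 ± 0.581 and 2.52 ± 0.466, and the sphingosine 1-phosphate phosphatase gene Sgpp2 fell, at 1.26 ± 0.0737 and 3.47 ± 0.171, each in PD and in DMSO organoids. In the prostaglandin branch the phospholipase gene Pla2g4a, which frees arachidonic acid, rose to 11.5 ± 1.55 in PD organoids, against 4.80 ± 0.807 in DMSO organoids. Hpgd, which inactivates prostaglandin E2, rose as well, at 26.9 ± 1.22 in PD organoids and 8.82 ± 1.11 in DMSO organoids. The inducible cyclooxygenase gene Ptgs2 and the prostaglandin E synthase gene Ptges fell, at 0.0867 ± 0.0569 and 0.460 ± 0.147 in PD organoids and at 0.323 ± 0.110 and 1.54 ± 0.252 in DMSO organoids (SD, n = 3). Ptgds, which makes prostaglandin D2, was 95.0 ± 8.98 in PD organoids and 31.0 ± 2.79 in DMSO organoids.

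Receptors for peptides moved both ways. Of 7 listed, 2 rose (Ednra and Galr2), 4 fell (Agtr1a, Bdkrb2, Calcrl and Vipr1) and Ednrb was not called, where 51.1% of all listed genes fell. Ednra (chromosome 8, 77663031 to 77724464), the endothelin A receptor needed for jaw and heart outflow development, had values of 11.33, 10.54 and 10.69 in PD organoids and of 2.50, 3.21 and 2.85 in DMSO organoids. Every PD library lay above every DMSO library, and the PD mean was 3.80 times the DMSO mean. The log2 difference was 1.62 ± 0.12 (SE, limma adjusted p = 1.35e-05). Markers of mesenchyme and smooth muscle, cell types in which Ednra is well known, moved with it in sum, as given above, but not each in the same direction. Lum, Dcn, Pdgfra, Tbx18, Pou3f4, Vim, Tagln, Myl9 and Mylk rose, Rgs5 and Pdgfrb fell, Col1a1 and Col1a2 were not called, and Twist1, Acta2, Myh11 and Des are not listed. Nearly all of the smooth muscle sum was Myl9, at 262 ± 5.94 in PD organoids and 43.6 ± 0.779 in DMSO organoids (SD, n = 3). Their part in the result was not tested.

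Ednrb encodes the endothelin B receptor, which melanocytes and enteric neurons need and whose loss in the mouse leads to deafness with missing strial melanocytes. It had values of 0.65, 1.43 and 0.99 in PD organoids and of 2.43, 2.42 and 82.66 in DMSO organoids. The PD libraries lay below all DMSO libraries, but DMSO replicate 3 stood far above the other DMSO samples. The difference, -2.31 ± 1.15 on the log2 scale, was not called (SE, limma adjusted p = 0.0859). It was called without DMSO replicate 3 (-0.78, limma adjusted p = 0.00679) and without DMSO replicate 2 (-3.08, limma adjusted p = 0.0478). Of 5 melanocyte markers only Kit is listed, at 14.6 to 17.3 in PD organoids and 6.12 to 8.04 in DMSO organoids. The ligand gene Edn3 rose to 3.94 ± 0.527 in PD organoids, against 1.55 ± 0.286 in DMSO organoids (SD, n = 3).

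Agtr1a, the main receptor for angiotensin II, averaged 1.09 ± 0.308 in PD organoids and 3.90 ± 0.430 in DMSO organoids (SD, n = 3), and differed by -1.24 ± 0.15 on the log2 scale (SE, limma adjusted p = 1.56e-04). Ace, whose enzyme makes angiotensin II, fell too, at 1.52 ± 0.314 in PD organoids and 3.52 ± 0.0603 in DMSO organoids. Calcrl, which binds adrenomedullin or CGRP depending on the Ramp protein it pairs with, had values of 0.27, 0.25 and 0.36 in PD organoids and of 0.50, 1.93 and 1.25 in DMSO organoids, which gave -0.73 ± 0.22 on the log2 scale (SE, limma adjusted p = 0.0148). The DMSO libraries spread widely but stayed above the PD libraries. No Ramp gene is listed. The ligand genes Adm and Adm2 fell further, with log2 differences of -4.69 and -1.57, and Adm was listed at 0, 0 and 0.08 in PD organoids, against 33.20, 21.50 and 22.99 in DMSO organoids.

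The remaining peptide receptors had group means under the added 1. Bdkrb2, the constitutive bradykinin receptor, was listed at 0.02, 0 and 0 in PD organoids and at 0.19, 0.37 and 0.30 in DMSO organoids. Vipr1, a receptor for VIP and PACAP that signals through Gs, averaged 0.113 ± 0.0987 in PD organoids and 0.773 ± 0.442 in DMSO organoids (SD, n = 3). The galanin receptor gene Galr2 was at 0.72, 0.89 and 0.65 in PD organoids and at 0, 0 and 0.35 in DMSO organoids. The groups did not overlap in any of these 3 genes. In such genes this addition shrinks the fold: with 0.1 in its place the log2 difference was -1.84 for Bdkrb2 in place of -0.35, -2.06 for Vipr1 in place of -0.65, and 2.36 for Galr2 in place of 0.66.

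Both listed receptors activated by protease cleavage fell. F2rl1 (chromosome 13, 95511732 to 95525227), which encodes the receptor PAR2 that trypsin-like proteases cleave, had values of 4.64, 3.75 and 4.42 in PD organoids and of 12.69, 15.08 and 14.05 in DMSO organoids. The groups lay well apart, with a PD mean 0.306 times the DMSO mean. On the log2 scale with 1 added the difference was -1.50 ± 0.12 (SE, limma adjusted p = 1.95e-05). Among the called members no fall was larger on this scale, which shrinks the falls of low-valued genes. With 0.1 added in its place F2rl1 was at -1.69, and several called members fell further, such as Adora1 (-2.45) and Vipr1 (-2.06). F2r, which encodes the thrombin receptor PAR1, lies on the same chromosome with 76575 bases between the genes. It had values of 16.32, 14.11 and 17.47 in PD organoids and of 28.30, 30.16 and 28.82 in DMSO organoids. These did not overlap either, and the log2 difference was -0.83 ± 0.09 (SE, limma adjusted p = 1.05e-04). The gene of the membrane serine protease prostasin, Prss8, moved the other way, at 86.5 ± 3.96 in PD organoids and 38.1 ± 0.892 in DMSO organoids (SD, n = 3). It is counted below among ligands and their enzymes, and whether it cleaves either receptor was not tested.

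The promoter of F2r is shown because it holds 1 of only 2 matches among the members to TGANTCA. That is a loose form of the AP-1 motif, with any base in the middle. The AP-1 motif is the site bound by FOS and JUN proteins that act below ERK. F2r was chosen after its values were seen. The window is chr13:95618417-95618716, minus strand, GRCm38.p6, from RefSeq, and runs from 250 bases before the gene's start to 50 after it. Capitals mark the match to TGANTCA.
F2r: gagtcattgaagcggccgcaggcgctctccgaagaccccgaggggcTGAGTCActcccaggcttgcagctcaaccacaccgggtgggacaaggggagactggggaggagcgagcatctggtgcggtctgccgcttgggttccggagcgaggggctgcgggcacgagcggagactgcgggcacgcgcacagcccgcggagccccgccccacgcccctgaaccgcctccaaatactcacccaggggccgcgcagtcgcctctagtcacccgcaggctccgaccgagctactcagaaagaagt
The match begins at base -204 from the start. Of the 38 genes 25 had a promoter in the RefSeq table, and the first start listed for each was searched on both strands. TGANTCA was found in 2 of 9 promoters of genes that fell, as TGAGTCA in F2r and as TGAATCA in Adora1. It was found in 0 of 11 promoters of genes that rose. The shares were 8.0% of the 25 member promoters, 5.3% of 3528 promoters of listed genes and 7.9% of all 27025 promoters. These counts take any middle base, and no narrower form of the motif was counted. The motif ACGTG, the core of the hypoxia response element, was found in 3 of 9 that fell (Adora1, Adra2c and Gpr37), 1 of 11 that rose (Htr1b), 23.8% of listed genes and 19.7% overall. TGACGTCA, the cyclic AMP response element, and CCGGAAGT, a site of ETS factors, were found in 0 of 25, beside 2.8% and 4.6% of listed genes and 1.9% and 4.0% overall. A match describes letters in a window and was not tested as a site.

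Receptors for amines and adenosine moved both ways. Adra2c, an alpha-2 adrenergic receptor that limits noradrenaline release, averaged 2.50 ± 0.358 in PD organoids and 3.83 ± 0.195 in DMSO organoids (SD, n = 3), and its fall (log2 difference -0.47 ± 0.13, SE, limma adjusted p = 0.00870) was not called under a scaling to equal median ratios (-0.20, limma adjusted p = 0.151). Htr1b, a presynaptic serotonin receptor, rose, at 0.307 ± 0.0802 in PD organoids and 0.0733 ± 0.0473 in DMSO organoids. Adora1, the adenosine receptor coupled to Gi that is also known from the cochlea, was listed at 0, 0 and 0.06 in PD organoids and at 0.38, 0.59 and 0.69 in DMSO organoids. It differed by -0.60 ± 0.09 on the log2 scale (SE, limma adjusted p = 5.81e-04), and 20.1% of its exon bases lie in exons of Mybph on the opposite strand. Among genes that set adenosine levels, the transporter gene Slc29a1 fell to 10.3 ± 0.315 in PD organoids, against 58.7 ± 2.58 in DMSO organoids (SD, n = 3). The adenosine deaminase gene Ada fell to 0.753 ± 0.131, against 4.12 ± 0.512 in DMSO organoids. The nucleotide-cleaving Enpp3 fell to 3.39 ± 0.252, against 7.31 ± 0.863 in DMSO organoids, and Enpp1 overlapped between groups, at 12.83, 9.63 and 30.08 in PD organoids and 10.89, 1.43 and 28.11 in DMSO organoids. Nt5e, which makes adenosine from AMP outside the cell, rose to 0.603 ± 0.194, against 0.113 ± 0.0643 in DMSO organoids. Of 16 genes in that list 8 are listed, with 1 higher, 6 lower and 1 not called. Of 22 genes of amine synthesis, uptake and breakdown 6 are listed, with 1 higher and 5 lower, among them the acetylcholinesterase gene Ache, listed at 0, 0.06 and 0 in PD organoids and at 2.43, 2.38 and 2.90 in DMSO organoids.

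Adhesion receptors split within a subfamily. Adgrg6 (chromosome 10, 14402583 to 14545659), needed for myelination by Schwann cells and, in zebrafish, for the semicircular canals, had values of 15.68, 13.32 and 15.57 in PD organoids and of 3.53, 4.39 and 4.06 in DMSO organoids. The groups did not overlap, and the PD mean was 3.72 times the DMSO mean, or on the log2 scale 1.67 ± 0.12 (SE, limma adjusted p = 1.28e-05). Adgrg1 (chromosome 8, 94974751 to 95014217), known from the development of the brain cortex, had values of 3.50, 2.51 and 1.86 in PD organoids and of 4.13, 5.47 and 5.06 in DMSO organoids. It was lower in PD organoids by a log2 value of -0.72 ± 0.19 (SE, limma adjusted p = 0.00811), and the call was lost when the median ratios were set equal (-0.44, limma adjusted p = 0.0530). Glial markers, a cell type in which Adgrg6 is well known, did not separate the groups by their sum: of 7 markers 3 are listed, 2 rose (Pmp22 and Prx) and 1 fell, and the sum was 19.4 to 19.7 in PD organoids and 17.1 to 20.0 in DMSO organoids, while Mbp and Sox10 are not listed.

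The promoters of these subfamily members are shown because the genes moved in opposite directions. The windows are chr10:14544987-14545286, minus strand, for Adgrg6 and chr8:94976859-94977158, plus strand, for Adgrg1, both GRCm38.p6 from RefSeq. Adgrg1 has more than 1 start in that table, and the first is given.
Adgrg6: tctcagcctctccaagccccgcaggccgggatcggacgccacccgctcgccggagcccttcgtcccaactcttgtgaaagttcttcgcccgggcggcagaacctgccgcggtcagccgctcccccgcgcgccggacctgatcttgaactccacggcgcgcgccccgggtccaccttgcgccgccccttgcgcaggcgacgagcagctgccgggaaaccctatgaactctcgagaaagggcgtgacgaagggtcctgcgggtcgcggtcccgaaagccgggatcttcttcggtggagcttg
Adgrg1: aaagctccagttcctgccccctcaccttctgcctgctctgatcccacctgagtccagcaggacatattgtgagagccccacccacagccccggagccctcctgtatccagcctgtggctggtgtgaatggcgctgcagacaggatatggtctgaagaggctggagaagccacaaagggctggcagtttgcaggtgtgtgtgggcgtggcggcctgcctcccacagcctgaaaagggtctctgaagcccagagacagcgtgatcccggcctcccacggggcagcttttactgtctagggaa
Neither window holds a letter in capitals, since none of the 4 motifs was found in either. The Adgrg6 window has 38 CG steps at 69.0% G and C, and the Adgrg1 window has 7 at 60.7%, beside medians of 7 and 52.7% over all promoters of the table.

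Adgrl3, a latrophilin that binds teneurin and FLRT proteins on neighbouring cells, had values of 25.49, 22.68 and 30.49 in PD organoids and of 13.90, 18.72 and 13.66 in DMSO organoids. The groups did not overlap, and the log2 difference was 0.73 ± 0.15 (SE, limma adjusted p = 0.00239). Of its partners, Flrt2 rose to 15.5 ± 1.68 in PD organoids, against 4.75 ± 0.159 in DMSO organoids, and Tenm2 rose to 1.47 ± 1.15, against 0.150 ± 0.0173. Tenm3 fell to 14.8 ± 0.811 in PD organoids, against 23.8 ± 1.60 in DMSO organoids (SD, n = 3). Adgra2, a co-receptor for Wnt7 in brain vessels, rose to 4.83 ± 0.626 in PD organoids, against 1.69 ± 0.281 in DMSO organoids (log2 difference 1.11 ± 0.14, SE, limma adjusted p = 2.07e-04). Adgre5, also called CD97, had values of 5.76, 5.06 and 2.92 in PD organoids and of 6.41, 8.88 and 9.21 in DMSO organoids. Its fall (log2 difference -0.74 ± 0.23, SE, limma adjusted p = 0.0164) was lost with equal median ratios and without DMSO replicate 2 or DMSO replicate 3 (-0.43, -0.68 and -0.65, limma adjusted p = 0.0951, 0.0531 and 0.0530), and 23.8% of its exon bases lie in exons of Ddx39 on the opposite strand. Its binding partner gene Cd55 rose to 7.64 ± 1.08 in PD organoids, against 1.48 ± 0.356 in DMSO organoids (SD, n = 3). Adgrb2, a brain adhesion receptor, overlapped between the groups, at 3.95, 4.65 and 3.32 in PD organoids and 4.13, 3.01 and 3.62 in DMSO organoids (log2 difference 0.12 ± 0.16, SE, limma adjusted p = 0.488). C1ql3, a ligand of the brain adhesion receptor Adgrb3, rose to 6.37 ± 0.826 in PD organoids, against 1.00 ± 0.0551 in DMSO organoids. Of 40 genes in a list of adhesion receptor partners 18 are listed, with 12 higher, 3 lower and 3 not called, among them the collagen IV genes Col4a1 and Col4a2, whose protein binds Adgrg6, which rose with log2 differences of 1.18 ± 0.12 and 1.20 ± 0.08 (SE).

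**Figure D2:**
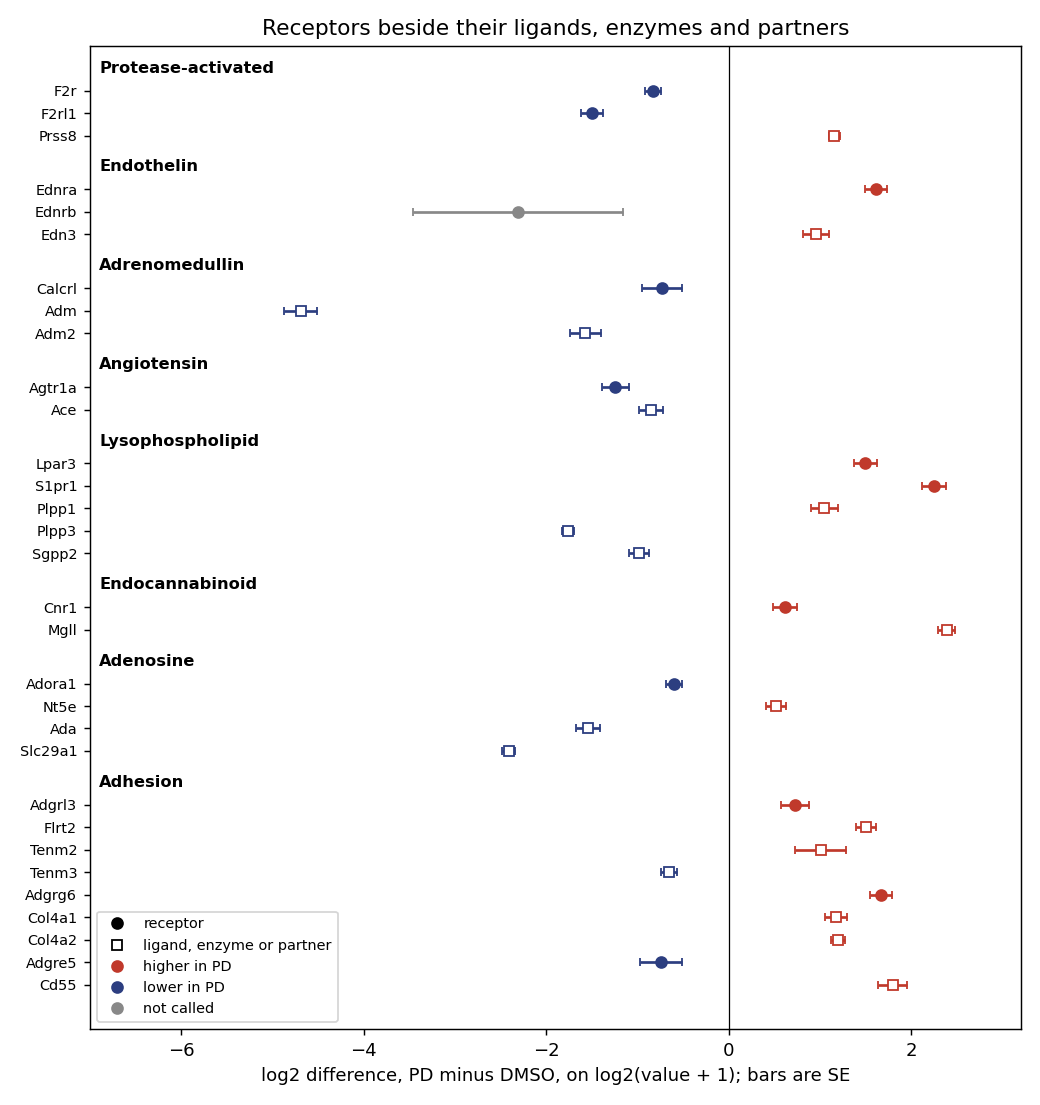
Receptors (filled circles) stand beside their listed ligands, enzymes and partners (open squares), as log2 differences, PD minus DMSO, on log2(value + 1), with SE bars. Calcrl, Adm and Adm2 all lie left of 0, at -0.73, -4.69 and -1.57, while the receptors F2r and F2rl1 lie left of 0 and the protease gene Prss8 lies right of it. Whether Prss8 acts on these receptors was not tested.

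Orphan receptors, which have no agreed ligand, made up 12 of the 35 receptors, of which 7 rose, 4 fell and 1 was not called. Gpr179, a class C receptor of retinal bipolar cells, had values of 11.81, 16.74 and 8.97 in PD organoids and of 2.23, 2.94 and 3.13 in DMSO organoids. Its lowest PD library lay above the highest DMSO library, with a PD mean 4.52 times the DMSO mean (log2 difference 1.81 ± 0.22, SE, limma adjusted p = 1.56e-04). Gpr160 had values of 7.04, 5.01 and 6.99 in PD organoids and of 5.23, 1.77 and 2.52 in DMSO organoids, so DMSO replicate 1 reached into the PD range. Its call (log2 difference 0.89 ± 0.30, SE, limma adjusted p = 0.0212) was lost without DMSO replicate 2, DMSO replicate 3, PD replicate 1 or PD replicate 3 (0.64, 0.81, 0.82 and 0.82, limma adjusted p = 0.0655, 0.0601, 0.0647 and 0.0622). Gpr75 rose to 2.44 ± 0.429 in PD organoids, against 0.427 ± 0.195 in DMSO organoids. Gpr85 and Gpr27, close relatives strongly conserved among vertebrates and known from the brain, rose to 1.18 ± 0.321 and 1.47 ± 0.0551 in PD organoids, against 0.133 ± 0.00577 and 0.693 ± 0.163 in DMSO organoids (SD, n = 3).

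Of the orphan receptors that fell, Gprc5c was measured most closely. Gprc5c (chromosome 11, 114851152 to 114872617), of a class C family inducible by retinoic acid, had values of 19.55, 19.26 and 18.50 in PD organoids and of 47.04, 43.33 and 47.66 in DMSO organoids. All libraries of a group lay close together, and the log2 difference was -1.22 ± 0.07, the smallest SE of the 38 genes (limma adjusted p = 4.24e-06). Gpr162 had values of 17.49, 19.49 and 13.76 in PD organoids and of 42.01, 47.81 and 48.99 in DMSO organoids, which did not overlap (log2 difference -1.41 ± 0.13, SE, limma adjusted p = 3.89e-05). Gpr157 fell to 0.883 ± 0.201 in PD organoids, against 3.23 ± 0.551 in DMSO organoids. Gpr37, known from oligodendrocytes and as a substrate of parkin, fell to 0.740 ± 0.128 in PD organoids, against 2.33 ± 0.272 in DMSO organoids (SD, n = 3). Gpr19 was not called: it had 3.75, 6.72 and 3.26 in PD organoids and 7.51, 25.00 and 4.87 in DMSO organoids, where DMSO replicate 2 stood apart (log2 difference -1.02 ± 0.53, SE, limma adjusted p = 0.0958). Without DMSO replicate 2 its log2 difference was -0.39, and without DMSO replicate 3 it was -1.47 and called (limma adjusted p = 0.0250).

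**Figure D3:**
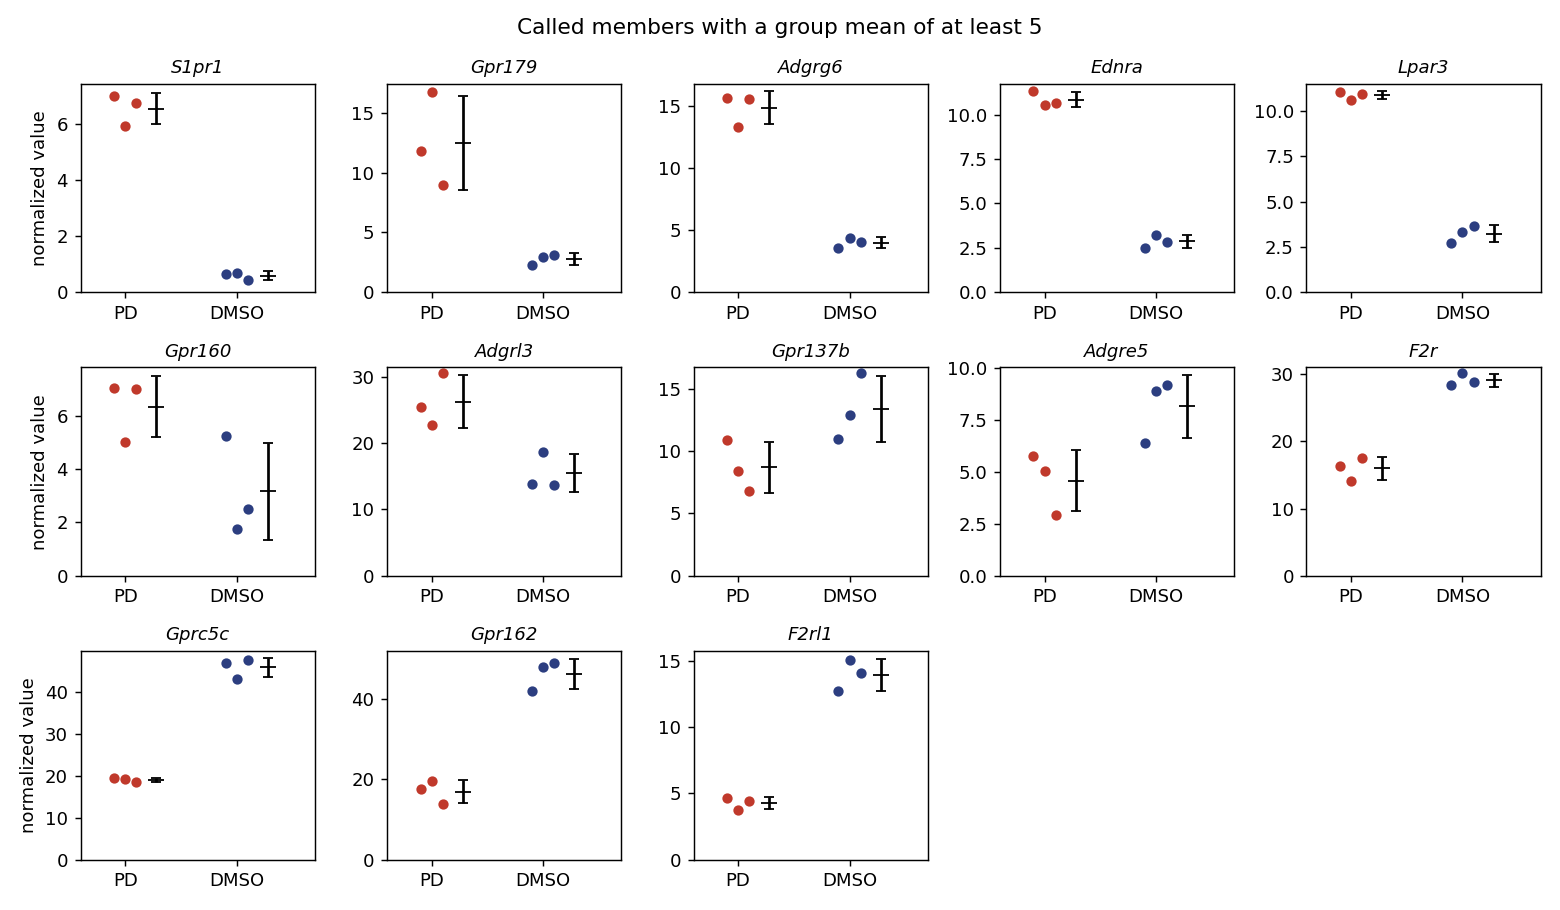
Normalized values are shown for the 13 genes that passed the test and whose PD or DMSO mean reached 5, with 1 point per sample and the mean ± SD beside the points, PD organoids left of DMSO organoids. The first 7 panels are genes that rose and the last 6 genes that fell, and only Gpr160 shows a DMSO point within the range of the PD points.

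The 3 genes outside the receptor class were less clear. Gpr137b, which encodes a lysosomal membrane protein, had values of 10.88, 8.41 and 6.78 in PD organoids and of 10.99, 12.88 and 16.21 in DMSO organoids. The highest PD library lay just under the lowest DMSO library, and the call (log2 difference -0.57 ± 0.19, SE, limma adjusted p = 0.0215) was lost under both other scalings (-0.25 and -0.38, limma adjusted p = 0.225 and 0.0823). It was also lost without DMSO replicate 3, PD replicate 2 or PD replicate 3 (-0.43, -0.56 and -0.43, limma adjusted p = 0.0723, 0.0558 and 0.0678). Gpr137 overlapped between groups, at 15.74, 18.70 and 8.98 in PD organoids and 9.23, 10.79 and 7.50 in DMSO organoids, and was not called (log2 difference 0.56 ± 0.26, SE, limma adjusted p = 0.0656). It was called without PD replicate 3 (0.85, limma adjusted p = 0.00330) and under both other scalings (0.89 and 0.74, limma adjusted p = 0.0113 and 0.0277). Without PD replicate 2 it was 0.36 and without DMSO replicate 3 it was 0.44 (limma adjusted p = 0.211 and 0.177). Htr3b was at 5, 0.77 and 18.14 in PD organoids and 2.67, 0.12 and 0 in DMSO organoids. These ranges overlap widely, and its log2 difference of 1.88 ± 0.87 was not called (SE, limma adjusted p = 0.0683). It was called without DMSO replicate 1 or PD replicate 2 (2.47 and 2.74, limma adjusted p = 0.0392 and 0.0109), and without PD replicate 3, the library with 18.14, the log2 difference was 1.02 (limma adjusted p = 0.206).

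Below the receptors, listed genes of the G protein machinery moved both ways. Of 32 G protein subunit genes 5 are listed, with 1 higher and 4 lower. Gna14, an alpha subunit of the Gq family, rose, with values of 10.06, 10.89 and 11.90 in PD organoids and of 3.95, 5.41 and 6.20 in DMSO organoids. The gamma subunit genes Gng2 and Gng12 fell to 4.02 ± 1.10 and 35.0 ± 3.92 in PD organoids, against 20.9 ± 4.29 and 55.2 ± 2.83 in DMSO organoids (SD, n = 3). Receptor kinases, arrestins and RGS proteins include many that end G protein signals. Of 37 genes in a list of these families 8 are listed, with 2 higher, 5 lower and 1 not called. Rgs4 and Arrdc4 fell to 0.120 ± 0.0781 and 17.8 ± 0.870 in PD organoids, against 23.8 ± 6.76 and 33.3 ± 2.23 in DMSO organoids. Arrdc4 encodes an arrestin-domain protein and not a classical arrestin, and the other listed genes of these families are all RGS genes. Rgs2 fell to 8.32 ± 0.877 in PD organoids, against 37.6 ± 3.35 in DMSO organoids, while Rgs16 rose to 11.2 ± 1.28, against 5.27 ± 0.743 in DMSO organoids. Rgs11, which acts with Gb5, fell to 19.0 ± 6.13 in PD organoids, against 44.5 ± 6.47 in DMSO organoids (SD, n = 3).

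Genes of the cyclic AMP branch were divided evenly, with 20 of 48 listed, 10 higher and 10 lower. The adenylyl cyclase genes Adcy5 and Adcy1 rose to 8.62 ± 1.69 and 6.65 ± 0.401 in PD organoids, against 0.637 ± 0.204 and 1.16 ± 0.176 in DMSO organoids, whereas Adcy3 fell to 5.26 ± 0.430, against 9.18 ± 1.5 in DMSO organoids. The phosphodiesterase genes Pde4a and Pde4d moved apart, at 0.913 ± 0.382 and 7.28 ± 1.17 in PD organoids and 4.04 ± 0.155 and 3.16 ± 0.161 in DMSO organoids. Akap12, a scaffold for protein kinase A, fell to 62.1 ± 2.96 in PD organoids, against 146 ± 11.2 in DMSO organoids, and the kinase's regulatory subunit gene Prkar2b fell to 11.2 ± 1.87, against 23.7 ± 0.159 in DMSO organoids (SD, n = 3). Of 20 genes known to respond to cyclic AMP or CREB 8 are listed, with 2 higher, 5 lower and 1 not called. Egr1, an early response gene that ERK also induces, fell to 0.24, 0.20 and 0.39 in PD organoids, against 10.45, 12.13 and 13.37 in DMSO organoids. Jun, Dusp1 and Nr4a1 fell to 9.98 ± 2.06, 1.16 ± 0.451 and 7.85 ± 0.258 in PD organoids, against 29.4 ± 2.38, 6.07 ± 1.51 and 14.4 ± 0.536 in DMSO organoids (SD, n = 3). The 2 that rose were Pde4d, given above, and Sik1, at 4.09 ± 0.394 in PD organoids and 2.58 ± 0.375 in DMSO organoids.

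In the calcium branch 19 of 35 genes are listed, with 11 higher, 7 lower and 1 not called. Prkca, the classical protein kinase C alpha, rose to 23.2 ± 1.57 in PD organoids, against 8.12 ± 1.33 in DMSO organoids, while Prkcq fell to 35.2 ± 3.02, against 88.6 ± 5.84 in DMSO organoids. The phospholipase C genes moved both ways. Plcb3, the only listed member of the type that Gq activates, fell to 19.7 ± 1.64 in PD organoids, against 32.8 ± 3.97 in DMSO organoids. Plcd1, Plcd3 and Plch1 fell to 10.8 ± 1.30, 5.20 ± 0.148 and 6.47 ± 0.714, against 25.6 ± 1.40, 12.5 ± 1.32 and 12.4 ± 0.595 in DMSO organoids. Plcd4 and Plch2 rose to 48.3 ± 4.96 and 5.65 ± 0.378 in PD organoids, against 26.5 ± 2.46 and 3.37 ± 0.780 in DMSO organoids. The IP3 receptor genes Itpr2 and Itpr3 moved apart, at 14.3 ± 0.816 and 1.68 ± 0.888 in PD organoids and 6.41 ± 0.813 and 4.03 ± 0.627 in DMSO organoids (SD, n = 3). Over all 11 lists 131 genes are listed, of which 58 rose, 66 fell and 7 were not called, or 94.7% called beside 95.5% of all listed genes.

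Of 110 G protein-coupled receptors outside the naming pattern 14 are listed, of which 6 rose and 8 fell. P2ry1, a Gq-coupled receptor for ADP, rose to 25.9 ± 1.59 in PD organoids, against 5.47 ± 0.825 in DMSO organoids. The Wnt receptor genes Fzd8 and Fzd10 rose to 12.6 ± 0.536 and 9.78 ± 0.506, against 3.08 ± 0.404 and 2.95 ± 0.0493 in DMSO organoids, and Fzd2 rose as well (log2 difference 0.85), while Fzd4 and Fzd9 fell (-0.82 and -1.31). Lgr6, a receptor for R-spondins, fell to 8.13 ± 0.310, against 39.4 ± 0.903 in DMSO organoids. The receptors for the chemokine CXCL12 moved apart, with Cxcr4 at 5.55 ± 0.481 in PD organoids and 14.1 ± 2.81 in DMSO organoids, and the scavenger Ackr3 at 10.7 ± 1.00 and 3.48 ± 0.821 (SD, n = 3). Of 59 genes of peptide and protein ligands and their enzymes 9 are listed, with 4 higher and 5 lower. Sema7a, a membrane-anchored semaphorin, fell to 0.467 ± 0.116 in PD organoids, against 15.3 ± 0.656 in DMSO organoids. It is counted in that list but is not an established ligand of this receptor class. Psap, whose secreted product prosaposin has been reported as a ligand of Gpr37, rose to 685 ± 19.2, against 370 ± 19.8 in DMSO organoids. Apln, the ligand of the apelin receptor, was at 0.49, 0.64 and 0.37 in PD organoids and at 5.0, 8.71 and 7.31 in DMSO organoids, and the chemokine gene Cx3cl1 rose to 6.53 ± 0.924, against 1.56 ± 0.148 in DMSO organoids (SD, n = 3). The receptors of these ligands, Aplnr and Cx3cr1, are not listed.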

How the data were processed

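RNA-seq values of 6 samples (PD n = 3, DMSO n = 3) were used. Tools named in the submitters' processing notes are Trimmomatic, HISAT2, HTSeq and DESeq2, with the mouse build mm10, and no version, role or strand option is given in the sources used here. Each library was made from 2 µg of RNA by a kit that keeps the strand of mRNA, per the labels' protocols. The authors deposited a normalized signal per gene and sample, with 2 decimals and, per the file headers, no stated scale, and their mean signal per group. The authors also deposited the PD-to-control fold (ratio), the log2 of that fold, and p-values before and after adjustment. The values are not read counts, so depth is unknown and no counting interval is given. Columns were matched by name, and 0 were left without a sample.

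limma 3.58.1 in R 4.3.3 was fitted to log2(value + 1) over all 4994 genes, with the spread trended on the level and no block, and Benjamini-Hochberg adjustment ran over all of them. The procedure was tested on simulated data. Differences are PD minus DMSO, errors of means are SD (n = 3) and errors of log2 differences are SE. Adding 1 makes folds of low-valued genes look smaller than they are.

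Members were chosen by symbol, and the members, receptor classes and 11 gene lists with earlier results of these data known. Coupling and ligand classes were written by hand from general knowledge. Of the 38 members, 35 are named and 3 are counted but not reported here by name, with values in each sample at least for those called with a mean of 5 or more, a rule for naming and not a comparison of levels between genes. Named pathway genes are, for each list, up to 4 with the smallest adjusted p among those with a mean of at least 5, and ligands of members. The other pathway genes named (such as Adcy3, Pde4a, Pde4d, Plcb3, Itpr2, Itpr3, Rgs11, Cxcr4, Ackr3, Ptgs2, Ptges, Pla2g4a, Plpp1, Sgpp2, Apln, Cx3cl1, Nt5e, Ada and Ache) were chosen after their values were seen, as was the F2r promoter. All 38 members are protein coding in GENCODE M21 (GRCm38, the assembly of mm10), which gave coordinates (1-based) and exon overlaps; 12 share exon bases with another gene, 11 of them on the opposite strand. Promoters are from RefSeq. Alternatives covered pseudocounts, a filter, scaling, a fit without the trend, a fit with a replicate block, and the removal of each sample in turn.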

Additional observations from a re-analysis of the deposited data

How the results depend on the processing

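Over 13 alternatives none of the 38 genes changed direction, and 28 stayed on the same side of the threshold in every alternative that fitted them. The other 10 were Htr3b, Gpr160, Gpr137, Adgrb2, Adra2c, Gpr137b, Adgrg1, Adgre5, Gpr19 and Ednrb. Counts of members called higher ran from 12 to 19 and of members called lower from 11 to 18, and their lowest values came from a filter that asked 3 samples to reach a value of 1, which left 28 of the 38 genes to fit. A scaling to equal median ratios gave 19 higher and 12 lower, and moved the median log2 difference of all listed genes to -0.18, against -0.42 with the values as deposited and -0.31 with quantile normalization. That scaling assumes balance among genes that were selected for differing. Under it Adgrb2 was called (0.39, limma adjusted p = 0.0485).

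By class, the filter left 2 Gi/o receptors higher and 1 lower and 1 Gq/11 receptor lower, because fewer genes were fitted. With equal median ratios 1 Gi/o receptor and 0 adhesion receptors were called lower. Leaving out each sample in turn gave 1 to 2 adhesion receptors called lower, with 1 in the fits without DMSO replicate 2 and without DMSO replicate 3, where the call of Adgre5 was lost. With 0.1 added in place of 1, Htr3b was called (3.46, limma adjusted p = 0.0468). Pathway genes called ranged from 48 to 60 higher and from 55 to 67 lower.

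Taken over all listed genes, same-numbered samples did not deviate together. The correlations of their deviations from the group means were -0.032, -0.005 and -0.001 for replicates 1, 2 and 3. Not every sample correlated best with its own number. Correlations over all genes cannot exclude a pairing, so whether the numbers pair the samples stays unknown. With the replicate number as a replicate block, 19 members were called higher and 18 lower. The block added Ednrb, Gpr19, Gpr137 and Htr3b (limma adjusted p = 0.0444, 0.00893, 0.0104 and 0.0382) and removed no call.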

Other observations

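The log2 ratio of group means had the same sign as the authors' deposited table for all 38 genes, but lay further than 0.5 from its log2 fold in 7. For Ednrb the log2 ratio of means was -4.83 and the authors' deposited table gave -1.34, a gap that goes with the value of 82.66 in DMSO replicate 3. For Gpr19, with 25.00 in DMSO replicate 2, the values were -1.44 and -0.87 in the authors' deposited table. For Adgrb2 the log2 ratio of means was 0.15 and the authors' deposited table gave 0.67 with an adjusted p of 0.00459, although the samples of the groups overlap. Whrn, which is no receptor but a partner of the hair bundle receptor Adgrv1, showed a like pattern, at 1.15, 1.90 and 1.14 in PD organoids and at 3.21, 3.76 and 59.43 in DMSO organoids, so that DMSO replicate 3 held the single high value in both Ednrb and Whrn. In Rgs6 the single high value was in PD replicate 2, at 1.57, 43.74 and 0.57 in PD organoids and 0.08, 0.08 and 0.97 in DMSO organoids.

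Neuron markers, of which 4 of 7 are listed, all rose, with summed values of 6.92 to 7.65 in PD organoids and 0.670 to 0.850 in DMSO organoids. The part of neurons in the results on receptors was not tested. Of 7 leukocyte markers only Ptprc is listed, at 0.06 to 0.21 in PD organoids and at 0 in DMSO organoids.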
